A study of Mus musculus with 24 samples.

Results

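The genes described here encode the proteins of the mitochondrial ribosome, named Mrps (small subunit) and Mrpl (large subunit) followed by a number. The rule for their choice was the gene symbol. Of 78 such protein-coding genes in RefSeq, 76 had a probe set (a group of array probes) annotated to 1 gene and were measured, among 18193 genes in all. The other 2, Mrpl30 and Mrpl53, were read only by probe sets shared with another gene. Of the 76, 26 encode small-subunit and 49 large-subunit proteins. Mrps36 carries the name, but its product is known as a part of the alpha-ketoglutarate dehydrogenase complex.

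Values came from 12 primary B-cell lymphomas of Emu-Myc transgenic mice, in which the Myc oncogene is expressed throughout the B-cell lineage. Each lymphoma was measured after 5 days in vitro with 0.05 µg/ml Adriamycin (ADR, the DNA-damaging drug doxorubicin) and untreated, giving 12 ADR and 12 untreated arrays of the same tumours. Cells of both groups carried retroviral Bcl2 in the MSCVpuro vector, which blocks apoptosis, had been selected with puromycin and grew on gamma-irradiated NIH 3T3 mouse fibroblasts. The labels mark the ADR arrays as senescence-induced, senescence being a lasting growth arrest. The labels give no age or sex of the mice.

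The mitochondrial ribosome translates the few messages of mitochondrial DNA, all of which encode subunits of the respiratory chain and ATP synthase. Its ribosomal RNAs come from mitochondrial DNA, while every one of its proteins is encoded in the nucleus, made in the cytosol and imported. Some of these proteins descend from bacterial ribosomal proteins, and others exist only in mitochondrial ribosomes. Growing cells, MYC-driven lymphomas among them, are known for high ribosome production.

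The 76 genes lay on 17 chromosomes, and 67 of them had an entry in the RefSeq table of promoters (GRCm38.p6, 250 bases before to 50 bases after each transcription start). The promoters of the called genes with the largest falls, Mrpl18, Mrpl48 (the most upstream of its 4 starts) and Mrps9, are printed because the members moved together. That of Mrps11 is printed because it starts 42 bases from the start of another member, Mrpl46, on the opposite strand. Capitals mark the letters CCGGAAG in either direction, which ETS factors such as GABP (NRF2) are known to bind. Of the 4 starts of Mrpl48, 1 that is not printed has these letters, so Mrpl48 counts among the members with them.
Mrpl18, chr17:12916042-12916341, minus strand: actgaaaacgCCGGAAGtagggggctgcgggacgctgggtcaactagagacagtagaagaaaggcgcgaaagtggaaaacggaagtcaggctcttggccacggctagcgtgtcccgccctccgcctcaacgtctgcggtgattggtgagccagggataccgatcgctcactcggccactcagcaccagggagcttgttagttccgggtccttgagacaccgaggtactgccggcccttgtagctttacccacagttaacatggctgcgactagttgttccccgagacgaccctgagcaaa
Mrpl48, chr7:100608252-100608551, minus strand: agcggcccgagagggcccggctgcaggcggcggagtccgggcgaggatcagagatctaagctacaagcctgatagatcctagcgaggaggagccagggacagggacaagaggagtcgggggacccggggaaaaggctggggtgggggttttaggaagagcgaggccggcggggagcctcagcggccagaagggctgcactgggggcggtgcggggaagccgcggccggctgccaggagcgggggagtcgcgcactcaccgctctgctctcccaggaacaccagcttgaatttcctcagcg
Mrps9, chr1:42850983-42851282, plus strand: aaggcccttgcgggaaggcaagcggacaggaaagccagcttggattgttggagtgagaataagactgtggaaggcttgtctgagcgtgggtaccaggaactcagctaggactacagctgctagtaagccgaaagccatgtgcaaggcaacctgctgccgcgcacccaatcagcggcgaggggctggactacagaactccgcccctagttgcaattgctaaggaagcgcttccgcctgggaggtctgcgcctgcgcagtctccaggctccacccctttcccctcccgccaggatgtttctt
Mrps11, chr7:78782881-78783180, plus strand: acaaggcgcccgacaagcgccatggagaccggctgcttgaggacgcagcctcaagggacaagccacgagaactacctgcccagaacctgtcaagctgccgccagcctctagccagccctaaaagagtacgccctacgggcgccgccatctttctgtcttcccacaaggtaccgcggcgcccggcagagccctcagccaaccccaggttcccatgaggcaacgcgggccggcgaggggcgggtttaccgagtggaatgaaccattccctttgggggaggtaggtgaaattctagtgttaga

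On both strands, CCGGAAG occurred in the promoters of 25 of 67 members (37.3%), against 15% of the 14452 genes tested that had a promoter entry and 9.93% of all genes in the table. The exact NRF1 consensus site occurred in 3 members (4.48%), against 1.75% of the genes tested and 1.07% of all. CACGTG, the E-box that MYC binds, occurred in 5 members (7.46%), against 10.2% of the genes tested and 8.09% of all. None of these letter strings contains another. A match of letters is a description of the window and not a shown binding site.

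Changes are given on the log2 scale as ADR minus untreated of the same lymphoma, from limma's paired fit over all 18193 genes. A gene is called at a Benjamini-Hochberg adjusted p under 0.05. All 76 members were well expressed, with mean log2 levels between 7.09 and 10.39, above the array medians of 4.38 to 4.47. In bulk RNA, a smaller share of lymphoma cells and less of a transcript per cell cannot be told apart. The arrays differed in markers of other cell types: fibroblast markers rose in 15 of 19 cases and macrophage markers in 12 of 17. The mean of the fibroblast list ran from 4.97 to 9.37 in ADR and from 4.52 to 5.59 in untreated arrays, and that of the macrophage list from 6.21 to 9.33 and from 4.96 to 8.32. The largest rises were those of the fibroblast genes Cald1 (8.36 ± 1.96 in ADR and 4.27 ± 0.83 in untreated arrays, near the floor) and Fn1 and of the macrophage genes Clec4d (10.05 ± 2.06 in ADR and 7.06 ± 1.99 in untreated arrays) and Adgre1 (SD, n = 12 each). Fn1, a matrix protein, stood at 10.20 ± 1.86 in ADR and 6.73 ± 1.09 in untreated arrays and Adgre1, the macrophage antigen F4/80, at 9.40 ± 1.59 and 7.21 ± 1.76 (SD, n = 12 each). Of 9 B-cell markers 3 fell, Cd22 (-1.33, adjusted p = 0.000163), Cd79a (-0.80, adjusted p = 0.0357) and Ebf1 (-0.56, adjusted p = 0.027). The other 6 were not called. Of the 9 changes 7 were below 0 and 2 above 0, with a median of -0.21 and a highest change of 0.3, in a marker that was higher in 11 lymphomas. The median B-cell marker level of an array ran from 7.81 to 10.84 in ADR and from 8.09 to 10.38 in untreated arrays, and that of T-cell markers from 4.60 to 5.03 and from 4.46 to 5.06.

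One library pair stood apart for these genes. In lymphoma 2949 most members were higher after ADR, 57 of 76, while 19 were lower, and the median member change was 0.26. For 52 of 76 members its untreated array held the lowest of the 12 untreated levels, and the median member lay there 0.53 below the mean of the 12 untreated arrays (deviation -0.53). Over all genes, 14% had their lowest untreated value in that array. The ADR array of 2949 lay near the middle, with a median member deviation of 0.04 from the mean of the ADR arrays. The counts of called members by role are given with and without this lymphoma.

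After ADR, transcripts of the mitochondrial ribosome were lower as a group, by small amounts and through both subunits. Of 76 members, 48 were called lower (63.2%), against 12.8% of all genes tested. None was called higher, against 13.7% of all genes, and 1, Mrpl52, was higher at an unadjusted p under 0.05. The median member change was -0.32, against -0.01 for all genes, and 73 fitted changes were below 0, against 51.6% of all genes. Among the 11358 genes with a mean level above the array medians, 20.3% were called lower, as were 50 of the 76 members. The falls were between 1.14-fold and 1.80-fold among the called members, and 6 were at least 1.5-fold, against 5.04% of all genes called at that size. Without lymphoma 2949, 57 members were called lower (14% of all genes) and the median was -0.37. With the fibroblast marker mean of each array as a covariate, 3 members were called lower (3.38% of all genes).

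**Figure D1:**
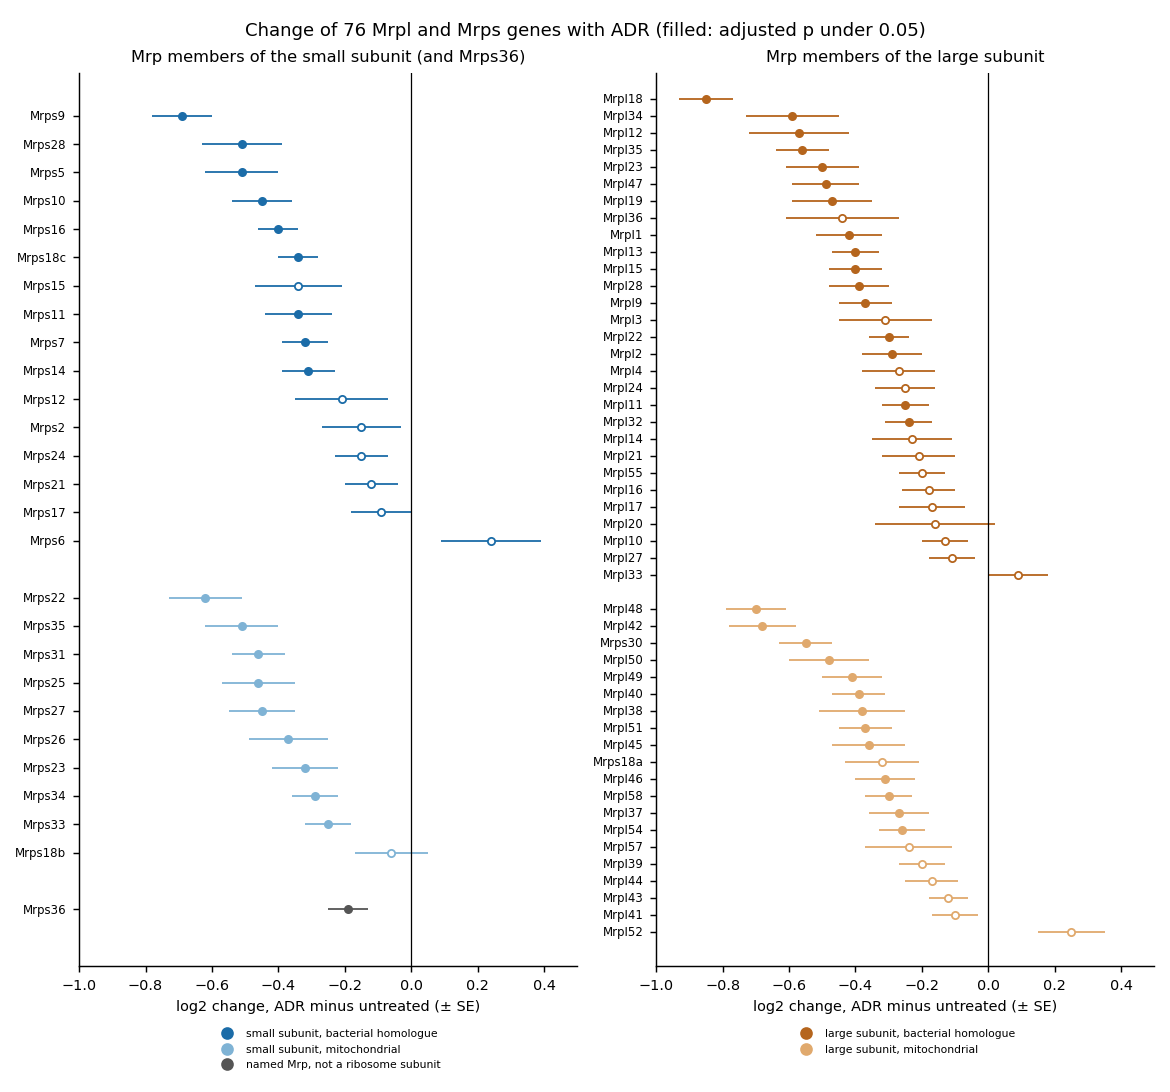
Log2 change (ADR minus untreated, limma's paired fit, 12 lymphomas, bars show the SE) of each of the 76 genes, by subunit and by whether a bacterial homologue exists. Filled points passed an adjusted p under 0.05: 48 lie left of 0 and none right of it, with Mrpl18 at -0.85 and Mrpl52 at 0.25 as the ends.

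Mrpl18, a homologue of a bacterial large-subunit protein, fell most. In ADR arrays its level ran from 8.49 through a median of 8.99 to 9.69, and in untreated arrays from 9.40 through 9.89 to 10.10. It was lower in 12 of 12 lymphomas, with changes of -1.26 to -0.41, and only the ADR value of lymphoma 3802 (9.69) reached into the untreated range. The level was thus lower by a factor of 1.80 (change -0.85 with an SE of 0.08 in limma's fit, adjusted p = 1.65e-05).

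Mrpl48, a large-subunit protein without a bacterial counterpart, had levels of 7.57, 7.92 and 8.79 (lowest, median and highest) in ADR arrays and of 8.04, 8.77 and 9.04 in untreated arrays. It was 1.62-fold lower (-0.70, SE 0.09, adjusted p = 0.000127), in 12 of 12 lymphomas, with overlapping groups. A second of its probe sets was also called lower (-0.54) and the third lay near the floor. Mrps9, a small-subunit protein related to bacterial S9, had 7.15, 8.09 and 8.50 in ADR arrays, against 8.04, 8.68 and 9.25 in untreated arrays. It was also 1.62-fold lower (-0.69, SE 0.09, adjusted p = 0.000117) and lower in all 12 pairs, and 3 of its 4 probe sets were called.

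Mrpl42, another large-subunit protein found only in mitochondria, was also lower (-0.68, SE 0.10, adjusted p = 0.000212). Its levels were 9.24, 9.59 and 10.03 in ADR arrays and 9.72, 10.27 and 10.54 in untreated arrays. The groups overlapped, but every lymphoma was lower after ADR, with 2949 at -0.10.

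**Figure D2:**
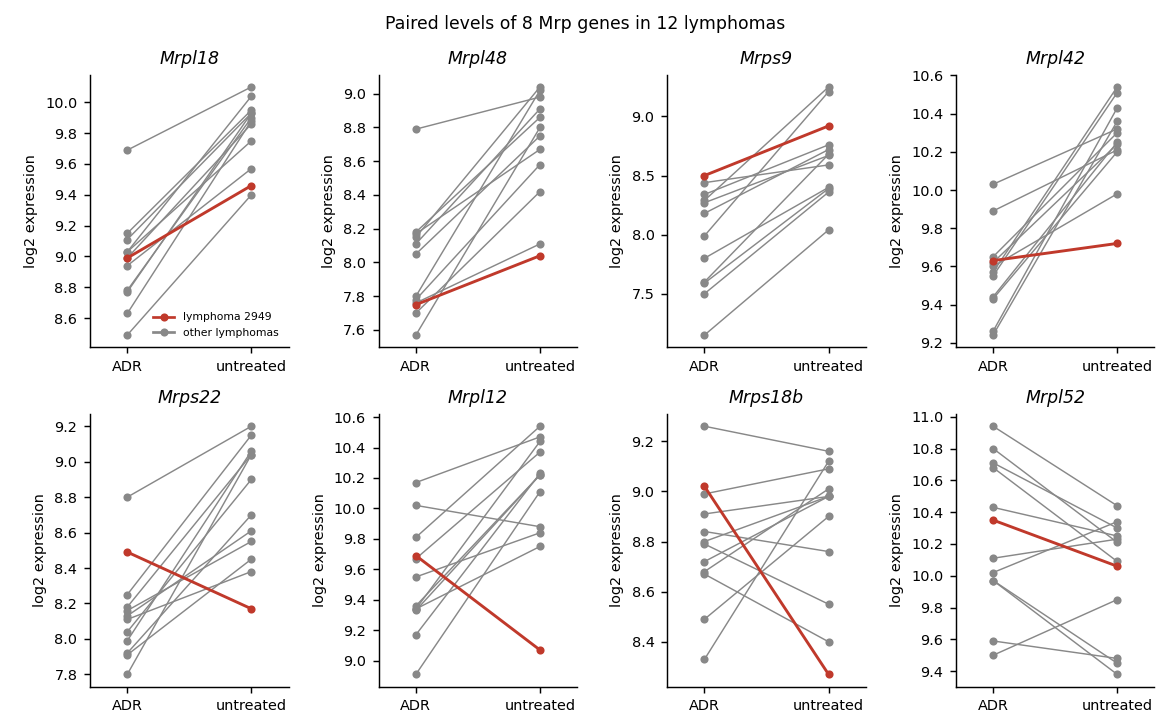
Log2 expression of 8 members in each lymphoma after ADR (left) and untreated (right), lines joining arrays of the same lymphoma. Mrpl18 fell along every line. Lymphoma 2949 (red) ran upward with ADR for Mrps22, Mrpl12 and Mrps18b, where its untreated level was the lowest of 12, and Mrpl52 was higher with ADR in 9 lymphomas.

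Genes of small-subunit proteins with bacterial homologues were called lower in 9 of 16 cases (median -0.33), against 12.8% of all genes. The count was 11 without lymphoma 2949 and 0 with the fibroblast covariate. Beside Mrps9 the largest falls were those of Mrps5, 1.43-fold (-0.51, SE 0.11, adjusted p = 0.00285), and Mrps28, 1.42-fold (-0.51, SE 0.12, adjusted p = 0.00716). Mrps5 had levels of 6.95, 7.35 and 7.79 in ADR arrays and of 7.37, 7.91 and 8.22 in untreated arrays. It was lower in 11 of 12 lymphomas and 0.43 higher in 2949. Mrps16, named after its values were seen, fell 1.32-fold in 12 of 12 (adjusted p = 0.000402), a call lost without the replicate block.

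Small-subunit members listed as mitochondrial, without a direct bacterial counterpart, were called lower in 9 of 10 cases (median -0.41), against 12.8% of all genes. The count was 9 without lymphoma 2949 and 0 with the fibroblast covariate. Mrps22 was 1.54-fold lower (-0.62, SE 0.11, adjusted p = 0.00127), with levels of 7.80, 8.12 and 8.80 in ADR arrays and of 8.17, 8.80 and 9.20 in untreated arrays. Mrps35 was 1.42-fold and Mrps25 1.38-fold lower (adjusted p = 0.00285 and 0.00774). Each of these 3 was lower in 11 lymphomas and higher in 2949. The exception of the group, Mrps18b, a diverged relative of bacterial S18, did not pass (-0.06, SE 0.11, adjusted p = 0.753), with levels of 8.79 ± 0.25 in ADR and 8.85 ± 0.29 in untreated arrays (SD, n = 12 each). It was lower in 7 lymphomas.

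Genes of large-subunit proteins with bacterial homologues were called lower in 16 of 29 cases (median -0.30), against 12.8% of all genes. Without lymphoma 2949 it was 21, and with the fibroblast covariate 3. After Mrpl18, Mrpl34 was 1.51-fold lower (-0.59, SE 0.14, adjusted p = 0.00613), in 12 of 12 lymphomas. Its change was -0.01 in lymphoma 3802 and -1.65 in 5560. Mrpl12, the protein of the ribosomal stalk that recruits translation factors, was 1.48-fold lower (-0.57, SE 0.15, adjusted p = 0.0106). Its levels were 8.91, 9.46 and 10.17 in ADR arrays and 9.07, 10.22 and 10.54 in untreated arrays. The value of 9.07 belonged to 2949, where Mrpl12 was 0.62 higher after ADR, and 1467 was 0.14 higher. Mrpl35 fell 1.48-fold in 12 of 12 (adjusted p = 0.000185), as did Mrpl23, named after its values were seen (1.42-fold, adjusted p = 0.00392).

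Large-subunit members listed as mitochondrial were called lower in 13 of 20 cases (median -0.32), against 12.8% of all genes. Without lymphoma 2949 it was 15, and with the fibroblast covariate 0. Mrps30, which sits in the large subunit in spite of its name, was 1.46-fold lower in 12 of 12 lymphomas (-0.55, SE 0.08, adjusted p = 0.000273). Its levels were 8.25, 8.54 and 9.26 in ADR arrays and 8.68, 9.26 and 9.45 in untreated arrays, so the groups overlapped. With Mrps30, 9 members were lower in all 12 lymphomas, against 4.17% of all genes: Mrpl18, Mrpl48, Mrps9, Mrpl42, Mrpl34, Mrpl35, Mrpl23 and Mrps16 were the others. Lower in 11 or 12 were 35 members, against 8.45% of all genes. For 0 members did the ADR and untreated values not overlap at all, against 0.264% of all genes.

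The 3 relatives of bacterial S18 take different places in the ribosome, and their values differed. Mrps18c, the copy that keeps the bacterial position, was 1.26-fold lower in 11 of 12 lymphomas (9.63 ± 0.17 in ADR and 9.97 ± 0.24 in untreated arrays, SD, n = 12 each, adjusted p = 0.00102). Mrps18a, a protein of the large subunit, had a change of -0.32 (SE 0.11) that did not pass (adjusted p = 0.0537), though it did without lymphoma 2949 or 1467. Mrps18b stood at -0.06, with adjusted p = 0.753. The differences between these changes were not tested. Mrps36, the member that is not a ribosome subunit, was 1.14-fold lower (8.33 ± 0.16 in ADR and 8.52 ± 0.18 in untreated arrays, adjusted p = 0.0449), a call lost without the replicate block and without 9 of 12 lymphomas in turn.

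Only 3 members had a fitted change above 0, and none passed. Mrpl52, a large-subunit protein found only in mitochondria, averaged 10.26 ± 0.47 in ADR and 10.01 ± 0.38 in untreated arrays (change 0.25, SE 0.10, adjusted p = 0.0785), and was higher in 9 lymphomas. Its other probe sets above the floor had changes of 0.25 and 0.24. Mrpl52 was called higher without lymphoma 2581 (12% of all genes called higher) or 5560 (11.9%), with a change of 0.30 in each fit. Mrps6, related to bacterial S6, had 8.22 ± 0.30 in ADR and 7.97 ± 0.41 in untreated arrays (change 0.24, SE 0.15, adjusted p = 0.253) and was higher in 8 lymphomas, 2949 among them at 1.08. Mrpl33 had a change of 0.09 (SE 0.09, adjusted p = 0.54).

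Of the 76 members, 42 had several single-gene probe sets. Of 156 probe sets 74 were called lower, against 12.5% of the 34945 single-gene probe sets fitted together. None was called higher, so no gene had probe sets called in opposite directions. Of the 27 called members with several probe sets, 3 had every probe set called lower. Some uncalled probe sets of the others lay near the floor and some above it. Of small-subunit members 18 of 26 were called lower (median -0.34), or 20 without lymphoma 2949, and of large-subunit members 29 of 49 (median -0.31), or 36 without it. The small-subunit median lay below the large-subunit median in 7 of 12 lymphomas. Members listed as mitochondrial were called in 22 of 30 cases (median -0.34) and those with a bacterial homologue in 25 of 45 (median -0.31), and without lymphoma 2949 in 24 and 32 cases. The 30 include Mrps18a and Mrps18b, diverged relatives of bacterial S18. Counted with the bacterial homologues, as an alternative added after seeing the data, they give 22 of 28 (median -0.37) and 25 of 47 (median -0.31). As listed, the median of the mitochondrial kind lay below that of the bacterial kind in 10 of 12 lymphomas. Neither difference was tested.

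Lymphomas differed widely. The median member change ran from -0.58 in lymphoma 3769, where 73 members were lower, to 0.26 in 2949. In 403, 7050, 5560 and 1570 it lay between -0.55 and -0.42, with 69 to 73 members lower. Lymphomas 2581, 3594, 5766 and 6054 had medians of -0.37, -0.32, -0.32 and -0.24. In 3802 it was -0.14, with 66 members lower, and in 1467 -0.15, with 46 lower and 30 higher.

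**Figure D3:**
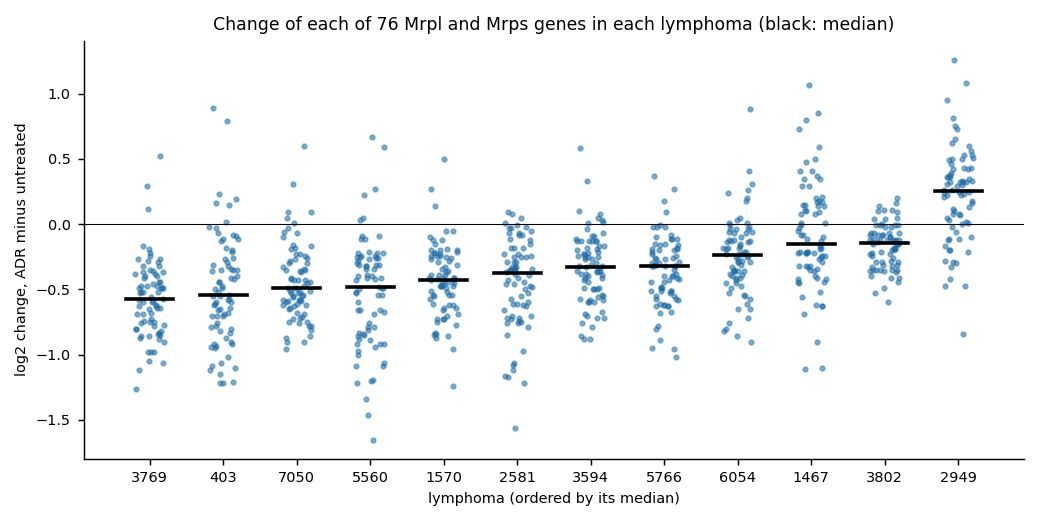
Log2 change (ADR minus untreated) of each of the 76 genes in each of the 12 lymphomas, 1 point a gene, with the median as a black line. Medians run from -0.58 in lymphoma 3769 to 0.26 in 2949, the 1 lymphoma with most points above 0.

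Myc, the driver of these tumours, was 1.68-fold lower with ADR (10.35 ± 0.88 in ADR and 11.09 ± 0.47 in untreated arrays, SD, n = 12 each, adjusted p = 0.0231), a call lost without lymphoma 3594 and without the replicate block. With the fibroblast covariate its change turned to 0.32 (adjusted p = 0.484). Whether the probe set reads the transgene was not tested. Myc was higher after ADR in 3 lymphomas, 3802 (0.34), 2949 (0.28) and 1467 (0.16), which were also those with the smallest member falls or a rise. Lymphoma 2949 had an untreated Myc level of 10.22, the lowest of the 12. In lymphoma 5560 Myc changed by -2.47 and the members by a median of -0.48, while in 3769, with the lowest member median, Myc changed by -1.04. All 10 proliferation markers fell, led by Ccnb2 (-2.49) and Aurkb (-2.43). Their median change was -3.39 in 2949, the lowest of the 12, and -0.91 in 3802, the highest. No relation between the changes of Myc, these markers and the members was tested.

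**Figure D4:**
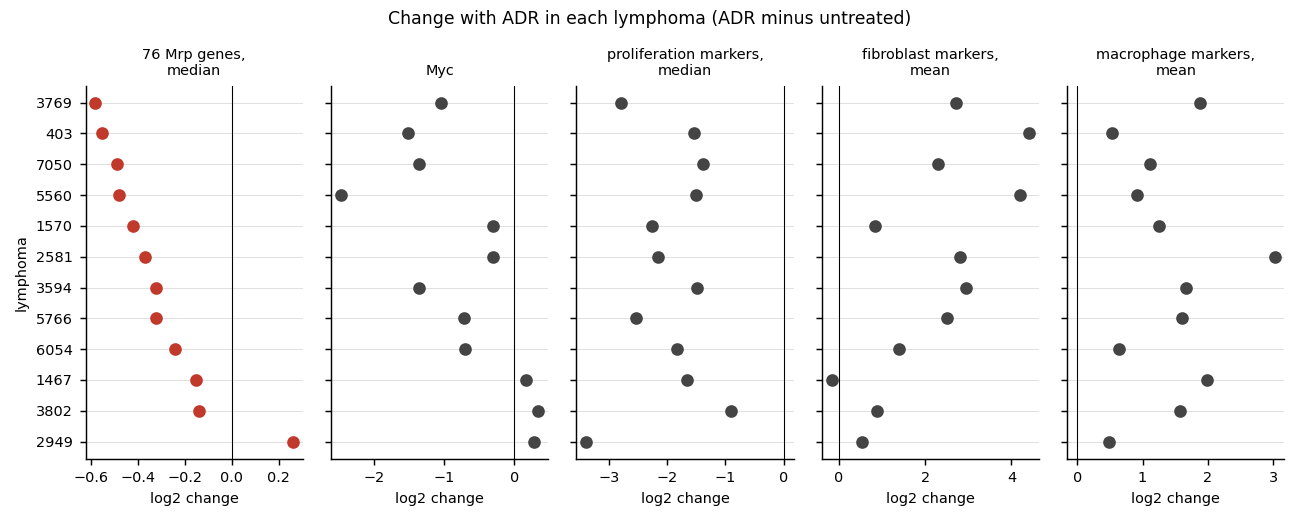
Log2 changes (ADR minus untreated) in each lymphoma, ordered by the median of the 76 genes, beside Myc, the median of 10 proliferation markers and the means of 19 fibroblast and 17 macrophage markers. Lymphomas 1467, 3802 and 2949 have Myc changes above 0 and fibroblast marker changes of -0.17, 0.89 and 0.53.

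The fibroblast marker mean differed between the same lymphomas. It changed by 4.41 in lymphoma 403, 4.21 in 5560, 2.71 in 3769 and 2.29 in 7050, the 4 with the lowest member medians, by 2.81 in 2581 and 2.95 in 3594, and by -0.17, 0.89 and 0.53 in 1467, 3802 and 2949. The orders were not the same. Lymphomas 3594, 2581 and 5766 had larger fibroblast marker changes than 7050 and smaller member falls. Lymphoma 1570 had a fibroblast marker change of 0.83 and 73 members lower (median -0.42), and 6054 had 1.40 and 65 (median -0.24). The macrophage marker mean rose in 12 of 12 lymphomas, by 0.48 in 2949 to 3.02 in 2581. With the fibroblast marker mean of each array as a covariate, limma called 3 members lower, Mrpl13, Mrpl14 and Mrpl18, a share near the 3.38% of all genes called lower in that fit, and 49 changes were below 0 (median -0.09). Mrpl18 kept a change of -0.59 (adjusted p = 0.0121). With both marker means, limma called 0 members and 0 genes. At an unadjusted p under 0.05 that fit had 6 members lower and 5 higher, against 1063 and 1095 of all 18193 genes. Since the macrophage marker mean rose in every pair, though by differing amounts, the fit with both means separates it from the treatment only in part. The part of these other cells in the member changes was not tested beyond these fits.

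Array file names in the descriptions of the ADR arrays hold either sen (5 lymphomas) or DOX (7). Within the sen lymphomas 13 members were called lower (2.6% of all genes) with a median of -0.37, and within the DOX lymphomas 17 (8.8% of all genes) with a median of -0.27. The DOX set includes lymphoma 2949, whose median member change was 0.26. Limma's test of the difference called 0 members and 0 genes, while 6 members and 6.8% of all genes had an unadjusted p under 0.05.

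Transcripts for proteins of the same ribosome that carry other names were also lower in most cases, against 12.8% of all genes called lower. Of 4 measured, 3 fell: Gadd45gip1, near the exit of the nascent chain, 1.58-fold (adjusted p = 0.00112), Chchd1, a small-subunit protein, 1.41-fold (adjusted p = 0.00199), and Dap3, a GTP-binding small-subunit protein, 1.38-fold in 12 of 12 lymphomas (adjusted p = 0.000402). Ptcd3, an RNA-binding protein of the small subunit, had a change of -0.33 (adjusted p = 0.144), and was called without lymphoma 2949. With the fibroblast covariate 0 of the 4 were called (median -0.21).

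Genes of factors that build and serve the mitochondrial ribosome were also called lower, against 12.8% of all genes. For assembly and ribosomal RNA factors it was 11 of 28 (median -0.24) and for translation factors 8 of 13 (median -0.32). For mitochondrial tRNA synthetases and the related amidotransferase it was 8 of 19 (median -0.28). None of these was called higher. With the fibroblast covariate limma called 0 of them, and the medians were 0.01, -0.04 and 0.05. Tfb1m, which methylates the small ribosomal RNA, was 1.78-fold lower in 12 of 12 lymphomas (6.82 ± 0.42 in ADR and 7.65 ± 0.25 in untreated arrays, SD, n = 12 each, adjusted p = 0.000337). Gtpbp10, a GTPase of large-subunit assembly, was 1.45-fold lower (adjusted p = 0.0231). The release factor gene Mtrf1l was 1.46-fold and the elongation factor gene Tsfm 1.42-fold lower (adjusted p = 0.00188 and 0.000827). Qrsl1, which completes the glutamine tRNA, was 1.72-fold lower and the leucine tRNA synthetase gene Lars2 1.44-fold lower (adjusted p = 0.00135 and 0.00677).

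Upstream of translation, 3 of 11 genes of mitochondrial DNA transcription and replication were called lower (27.3%, median -0.23), against 12.8% of all genes. The 3 included the exonuclease gene Mgme1 (1.73-fold, adjusted p = 8.7e-05) and Tfam, which packages mitochondrial DNA and starts its transcription (8.34 ± 0.34 in ADR and 8.99 ± 0.17 in untreated arrays, 1.57-fold, adjusted p = 0.000231). Import and chaperone genes were called lower in 5 of 15 cases (33.3%, median -0.20), among them the matrix protease gene Lonp1 (1.47-fold, adjusted p = 0.0132) and the import receptor gene Timm50 (1.37-fold, adjusted p = 0.00728). Among genes with a mean level above the array medians, 20.3% were called lower. With the fibroblast covariate 2 of 11 and 1 of 15 were called lower, against 3.38% of all genes, and the medians were 0.25 and 0.00. In that fit Mgme1 (-0.76, adjusted p = 0.0308) and Lonp1 (-1.10, adjusted p = 0.00954) passed, while Tfam (-0.26, adjusted p = 0.254) and Timm50 (-0.05, adjusted p = 0.918) did not.

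The cytosolic ribosome, which also makes the imported proteins of the mitochondrial ribosome, gave other counts in the same arrays. Of 46 cytosolic ribosomal protein genes, 7 fell (15.2%, against 12.8% of all genes) and the median change was -0.06. Of these genes 32 had mean levels of 13 or above, close to the array maxima of 14.06 to 14.36, where the signal may be saturated, so their small changes cannot be set against those of the members. Of the 14 below that level, 1 was called lower and 1 higher, with a median of -0.01. Some of these 14 lay near the floor, where RMA compresses differences, so their median is a weak measure of the list. Rpl14 was 1.78-fold lower (7.84 ± 0.56 in ADR and 8.67 ± 0.18 in untreated arrays, adjusted p = 0.00138) and Rpl11, at levels above 13, 1.14-fold lower (adjusted p = 0.0113). One rose, the paralogue Rpl39l, 7.77-fold (adjusted p = 0.000666), with a change of 0.22 under the fibroblast covariate. In lymphoma 2949 the median cytosolic change was -0.07, and the untreated array deviated by a median of 0.05. With 32 of the 46 genes close to the array maxima, these values cannot be set against those of the members either. The difference between both lists was not tested.

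**Figure D5:**
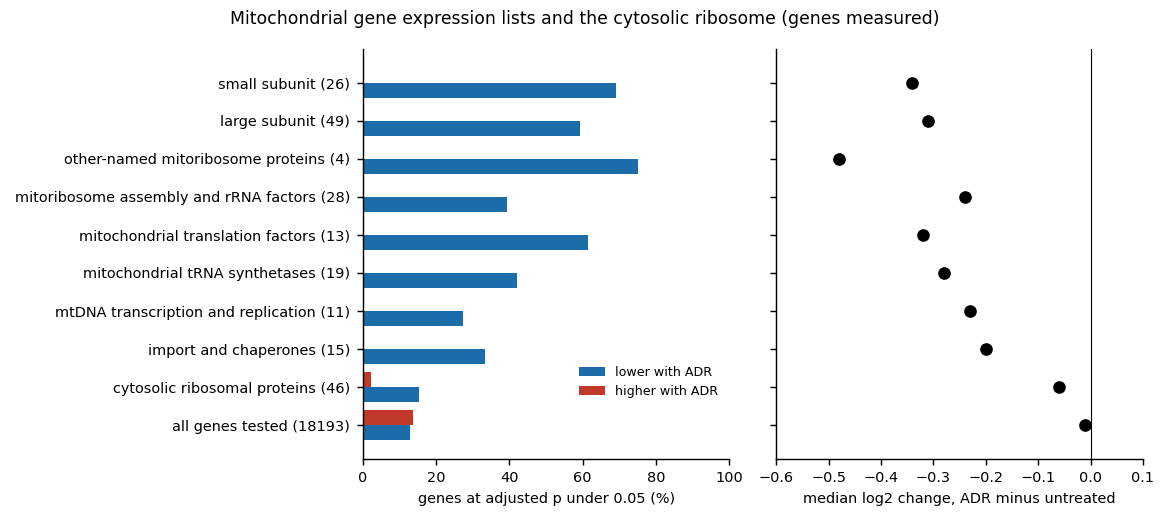
Share of genes called lower or higher with ADR at an adjusted p under 0.05 (left, percent) and median log2 change (right, ADR minus untreated) for each list, with the number of genes measured in parentheses. Both subunits (69.2% and 59.2% called lower) lie above all genes tested (12.8%), while the cytosolic ribosomal proteins (15.2%) mostly lie near the top of the array scale, where the signal may be saturated.

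A feature of these genes that the symbol rule did not use is their arrangement. Of the 67 members with a promoter entry, 25 (37.3%) started within 1000 bases of a gene on the opposite strand in head-to-head orientation, against 16.3% of the genes tested. For the 16 of these members that were called lower, the partner was called lower in 9 cases and higher in 1, and over all 25 in 11 and 2, against 12.8% and 13.7% of all genes. Mrps11 and Mrpl46 count here as each other's partner. Mrps11 (-0.34, adjusted p = 0.0203) and Mrpl46 (-0.31, adjusted p = 0.0142), a small-subunit and a large-subunit gene whose starts lie 42 bases apart, are each other's partners and both fell. Mrpl18 starts 238 bases from Tcp1, a subunit of the cytosolic TRiC chaperonin, which had a change of -0.46 (adjusted p = 0.000207).

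Partners did not move by the same amounts. Mrpl51 changed by -0.37 (adjusted p = 0.00287) and its partner Ncapd2, a condensin subunit of mitotic chromosomes, by -2.19 (adjusted p = 1.65e-05). Mrpl27 had a change of -0.11 that did not pass (adjusted p = 0.269), beside Eme1, a DNA repair nuclease subunit 48 bases away, at -1.42 (adjusted p = 1.65e-05). Mrpl2 fell by 0.29 on the log2 scale (adjusted p = 0.0278), beside Klc4, a kinesin light chain, which rose by 0.43 (adjusted p = 0.0311). Each of these calls was lost in 5 of the 12 fits that left out 1 lymphoma, and that of Mrpl2 also without the replicate block. These head-to-head pairs were named after their values were seen. Members with CCGGAAG had a median log2 change of -0.30 with ADR and 13 of 25 were called lower, and members without it had a median of -0.33, with 27 of 42 called.

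ADR arrays differed among themselves by a median SD of 0.29 per member and untreated arrays by 0.31 (n = 12 each), against 0.27 in ADR and 0.24 in untreated arrays over all genes. The median member change, -0.32, was of the size of this spread. Without the pairing by lymphoma, that is without the replicate block, 34 members were called lower (8.68% of all genes). In ADR arrays the highest members' deviation was that of lymphoma 3802 (median 0.34), which held the highest ADR level of 32 members, and the lowest that of 3769 (-0.20). In untreated arrays deviations ran from -0.53 in 2949 to 0.23 in 1570.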

How the data were processed

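Log2 expression values of 24 arrays (12 ADR, 12 untreated) were analysed as deposited by the authors. The submitters' processing notes name RMA and Partek, with no version or setting; that the values are log2 was read from their range. Scanner files were not used here. RMA compresses differences near the floor. Precision rests on the number of lymphomas, 12.

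Of 45101 probe sets, 34945 had 1 symbol in the platform annotation, 932 several, 9160 none, and 64 were controls. Each of 18193 genes was represented by its brightest probe set (highest mean over all arrays) among those with 1 symbol. ADR and untreated arrays were paired by the lymphoma number in the titles, as the series' design text speaks of matched pairs. Deviations from group means correlated within pairs with r between 0.267 and 0.595, above 0.1 in 12 of 12. In 10 of 12 lymphomas the ADR array correlated best with its own untreated array. The ADR arrays of 1467 and 5766 correlated better with the untreated array of another lymphoma. Limma 3.58.1 (R 4.3.3) was fitted with the lymphoma as a block and eBayes, with Benjamini-Hochberg adjustment over all genes. On simulated data with all 18193 genes the fit of ADR against untreated recovered 20.0% of log2 changes of 0.25, 74.0% of 0.5, 86.0% of 1 and 100% of 2. Of the calls 3.45% were false. The simulation changed far fewer genes than were called in the data, which makes the adjusted p cut stricter there. These rates therefore need not hold for the real fit, in which small member changes can still be missed. Tables and figures used Python 3.11.15, pandas 2.3.3 and matplotlib 3.10.9.

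The members are set by a rule on symbols, but they and the lists were chosen with earlier results of these data known. Named members are the 10 called members with the largest falls, the 3 largest in each role group, Mrpl12, Mrps30, Mrps18a, Mrps18b, Mrps18c and Mrps36; others were named after their values were seen. In the other lists the 2 called genes with the largest change and the called gene with the largest change the other way are named; Dap3, Ptcd3 and Ebf1 were named after their values were seen. Alternatives covered pairing, probe set choice, scaling, low values, array weights, variance model, marker covariates, the file-name sets and leaving out each lymphoma.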

Additional observations from a re-analysis of the deposited data

How the results depend on the processing

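The 48 members called lower became 34 without the replicate block, 39 with the most variable probe set, 51 with arrays centred on their medians, 46 with quantile normalization, 50 without genes near the floor, 53 with array weights and 47 with trended robust variances (12.1% to 14.4% of all genes tested in these fits, 20.3% without genes near the floor and 8.68% without the block). All 34 of the fit without the block were among the 48. Leaving out 1 lymphoma gave 41 to 57 members called lower, 0 to 1 called higher, and medians of -0.37 to -0.30. The count of members called lower was 17 in the DOX pairs and 13 in the sen pairs, where fewer lymphomas were fitted. It was 3 with the fibroblast covariate and 0 with both covariates. With the macrophage covariate alone, an alternative added after seeing the data, it was 0, and 0 of all genes were called lower or higher. At an unadjusted p under 0.05 that fit had 14 members lower and 2 higher, against 1407 and 1321 of all 18193 genes. The count called higher was 1, Mrpl52, with quantile normalization, with array weights and in the DOX pairs, against 0. The median, -0.32, was 0.06 with both covariates, -0.09 with the fibroblast covariate and between -0.37 and -0.24 in every other alternative run. Why the covariates move it was not tested.

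Some named genes changed direction. With the fibroblast covariate these were Mrpl34 (0.03), Mrpl12 (0.08), Mrps18a (0.00), Mrps18b (0.32), Mrpl33 (-0.13), Mrpl46 (0.02), Mrpl2 (0.03), Gtpbp10 (0.01), Lars2 (0.05), Cd79a (0.36), Myc (0.32) and Ptcd3 (0.34). With both covariates they were Mrpl12 (0.25), Mrps5 (0.16), Mrps28 (0.13), Mrps35 (0.08), Mrps25 (0.11), Mrps18a (0.08), Mrps18b (0.46), Mrps18c (0.02), Mrps36 (0.06), Mrps11 (0.08), Mrpl46 (0.03), Mrpl51 (0.01), Mrpl2 (0.29), Qrsl1 (0.31), Timm50 (0.25), Rpl14 (0.26), Fn1 (-0.22), Ptcd3 (0.48) and Ebf1 (0.10). With the macrophage covariate alone they were Mrps18b (0.04), Mrps36 (0.02) and Mrpl14 (0.01). Mrps18b was at 0.05 in the DOX pairs and at 0.01 without lymphoma 5560. Mrps9 (-0.36) and Mrpl35 (-0.26) lost their call with the most variable probe set, and Mrps36, Cd79a, Ebf1, Klc4 and Mrpl2 lost theirs in 5 to 9 of the 12 fits that left out 1 lymphoma. Without the replicate block the calls of Mrps16, Mrps36, Mrpl46, Mrpl2, Gtpbp10, Cd79a, Ebf1 and Myc were lost.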
